A study of Mus musculus with 10 samples.

Results

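Interferon-stimulated genes were followed one at a time in carcinoma cells that had grown beside pancreatic stellate cells (PSCs), the fibroblast precursors of the pancreas, with or without the receptor gene Egfr. The set was a list of 33 genes named by symbol: transcription factors, sensors of foreign nucleic acid, antiviral effectors and other genes known to be induced by interferon. All 33 were found among the 51707 genes with a listed transcript, and 32 of them were among the 17495 genes above the expression filter. The exception was Mx1, an antiviral GTPase gene with at most 26 counts in a library.

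The samples were 10 RNA sequencing libraries from mouse pancreatic ductal adenocarcinoma, 5 in each of 2 groups. T6-LOH organoids of the KPC model, an engineered mouse model of this cancer, were placed in the pancreas of mice together with PSCs, and epithelial cells were later sorted from the tumours by flow cytometry. The PSCs came from the line PSC4, labelled ROSA for 5 libraries and EGFR KO B4 for the other 5. ROSA was taken to mean the Egfr WT PSCs that the title names (the control group below), and B4 the Egfr KO PSCs (the knockout group below). Both groups thus shared the organoids, the host and the parental PSC line, and the sequenced cells themselves were not the edited cells. All 5 knockout libraries carry the 1 label B4, so what Egfr loss did and what is peculiar to that line cannot be told apart. The title names NSG mice, which lack mature T, B and NK cells and keep macrophages, neutrophils and stroma, while the strain label reads C57BL/6J. The labels do not say how old the mice were or whether any of them gave more than 1 library, so the p-values below measure only the spread between these libraries, which may be partly technical.

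The libraries held 42040398 to 53816086 estimated counts in genes in the control group and 39534055 to 52920545 in the knockout group (n = 5 each, two-sided exact permutation p = 0.944). The epithelial label was checked on 8 markers (Epcam, 4 keratin genes, Cdh1, Cldn4 and Sox9), which summed to 16537 to 17806 counts scaled to a common library total (CPM) in the control group and 14359 to 25568 CPM in the knockout group. The 9 lymphocyte markers summed to 0.189 to 0.578 CPM in any library, and none of them passed the filter. Fewer interferon-stimulated transcripts per cell and fewer cells that carry them cannot be told apart in bulk RNA.

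Interferons of type I and type III signal through receptor-bound Janus kinases to a complex that contains STAT2 and IRF9 and binds the interferon-stimulated response element (ISRE) in the promoters of their targets. Interferon gamma acts on another element, the GAS site. In tumours the same genes can be kept on at a low level by interferon from neighbouring cells or by nucleic acids sensed within the carcinoma cell.

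RefSeq promoter windows of GRCm38.p6, from 250 bases before to 50 bases after a transcription start, were on hand for 23 of the 33 genes. The windows were searched on both strands for an ISRE core, GAAANNGAAA, and a GAS core, TTCNNNGAA. The 2 cores can share bases where they lie side by side. The ISRE core was in at least 1 window of 13 of these 23 genes (56.5%) and of 3.99% of all 27025 genes with a window. The GAS core was in 5 of the 23 (21.7%), namely Irf1, Ifit2, Oas1a, Bst2 and Ifi35, and in 9.55% of all genes. Isg15, Oas3, Oas1a, Oas1g, Ifit1, Ifit3, Ifit3b and Bst2 are shown because they span the patterns described below, from genes that moved together to Oas3, which was higher on average in the knockout group, and Bst2, which ran against the others. Each line runs 5′ to 3′ on the strand of the gene and ends before the start site. Capitals mark ISRE core matches on either strand that lie wholly within the line.
Isg15: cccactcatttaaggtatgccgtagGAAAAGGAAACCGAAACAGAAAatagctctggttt
Oas3: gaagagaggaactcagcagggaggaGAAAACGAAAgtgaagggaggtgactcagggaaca
Oas1a: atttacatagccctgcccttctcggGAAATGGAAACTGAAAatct
Oas1g: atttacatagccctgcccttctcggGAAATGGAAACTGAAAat
Ifit1: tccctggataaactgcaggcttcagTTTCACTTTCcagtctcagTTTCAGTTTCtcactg
Ifit3: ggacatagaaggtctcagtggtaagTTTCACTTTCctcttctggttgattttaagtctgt
Ifit3b: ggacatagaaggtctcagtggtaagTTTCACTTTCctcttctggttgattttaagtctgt
Bst2: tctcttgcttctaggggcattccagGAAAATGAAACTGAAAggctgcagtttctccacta

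These stretches lie at chr4:156200862-156200921 (Isg15), chr5:120777700-120777759 (Oas3), chr5:120907526-120907570 (Oas1a), chr5:120887614-120887656 (Oas1g) and chr8:71537568-71537627 (Bst2), all on the minus strand, and at chr19:34640760-34640819 (Ifit1), chr19:34583348-34583407 (Ifit3) and chr19:34607744-34607803 (Ifit3b) on the plus strand. Isg15 held 3 ISRE cores that overlap head to tail, with first bases 78, 72 and 66 bases before its start. Ifit3 and Ifit3b each held another core that is cut off here. It begins at the last base shown, 122 and 154 bases before the start. The stretches of Ifit3 and Ifit3b were equal at 60 of 60 bases, and those of Oas1a and Oas1g at 43 of 43 bases from their shared left end. A core match is a match of letters and not a measured binding site.

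Most of the 33 genes were expressed at low levels in these cells. On the length-corrected scale (TPM, mean of 10 libraries), Bst2 was highest at 86.2 TPM, followed by Ifi27 at 73.2, Irf1 at 60.3 and Ifi35 at 38.1 TPM. Irf9 (26.6 TPM), Oasl1 (19.8 TPM) and Irf7 (14.5 TPM) came next, and Cmpk2, Rsad2, Mx2, Trim30a, Ifit2, Oas2 and Mx1 were each below 1 TPM. The lead of Bst2 over Ifi27 did not hold in both groups: the means in the control group were 90.9 ± 14.1 and 102 ± 16.3 TPM, and in the knockout group 81.5 ± 19.8 and 44.5 ± 6.19 TPM (SD, n = 5 each).

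No gene in the transcriptome passed an adjusted p of 0.05 in the edgeR quasi-likelihood test of the knockout against the control group (0% of 17495), and so none of the 32 did. At an unadjusted p under 0.05, 10 of the 32 were lower and 0 higher in the knockout group, where 4.6% of all genes tested were lower and 3.55% higher. The 10 became 4 without control replicate 3 and 6 without knockout replicate 2. DESeq2 called 0.831% of its genes and limma voom 0.0171%, and each called 1 of the 32, Ifi27. In all, 29 of 32 had a log2 fold change below 0, against 49.9% of all genes. The median log2 fold change was -0.33, beside 0.00041 for all genes tested. Apart from Ifi27, the edgeR adjusted p was between 0.471 and 0.986 for each gene, so no single difference passed after adjustment over all genes tested. The heat map by library and the plot of fold changes lay these values out gene by gene.

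**Figure D1:**
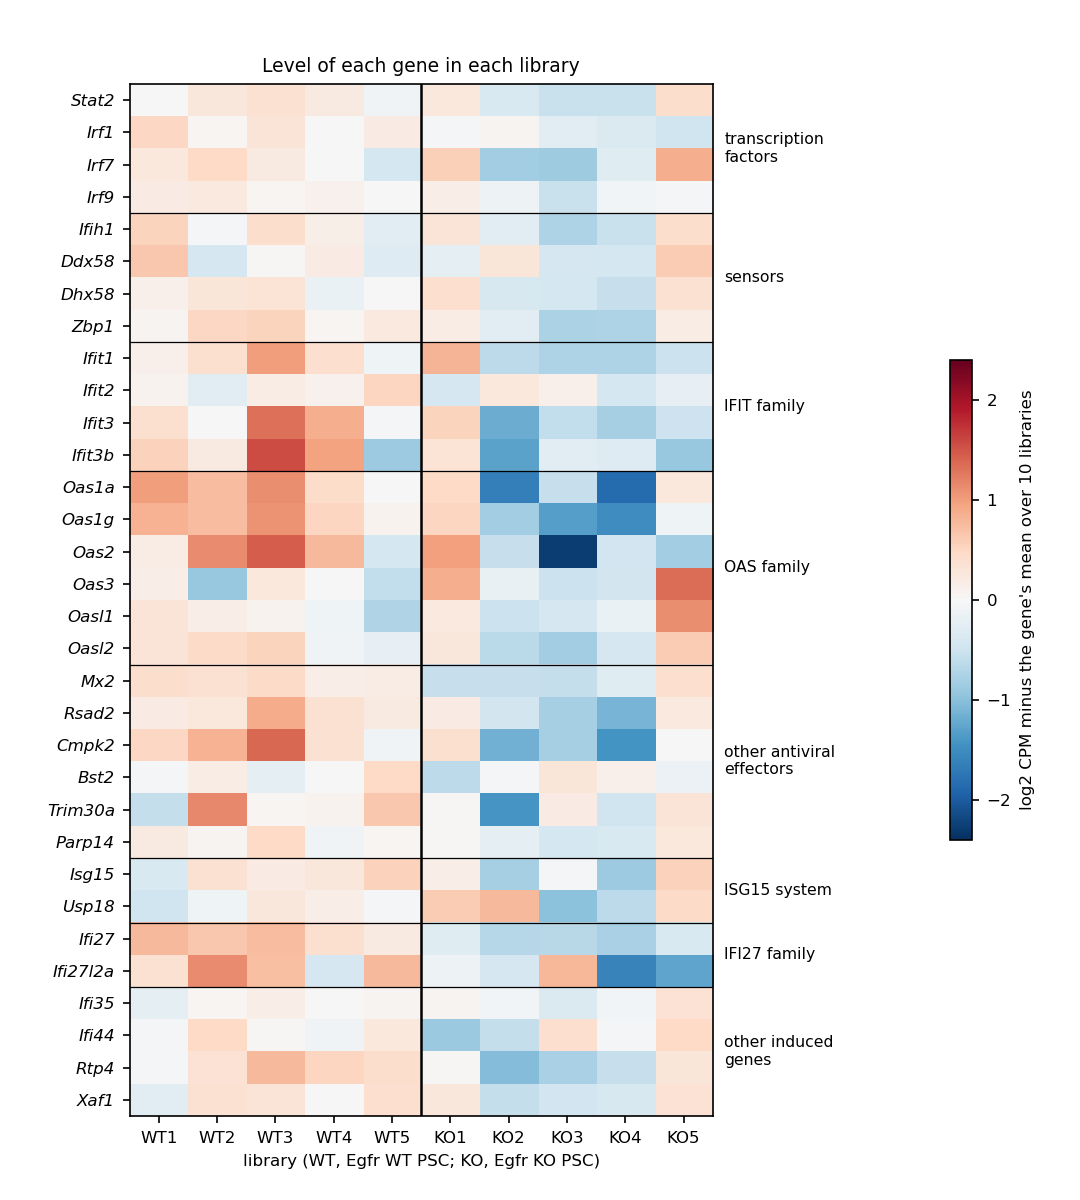
Level of 32 interferon-stimulated genes (rows, grouped by role) in each of 10 libraries (columns), as log2 CPM minus the gene's mean over the 10 libraries, with red above and blue below that mean. WT stands for the control and KO for the knockout group, and the number is the replicate. The columns KO2, KO3 and KO4 are mostly blue, while KO1 and KO5 hold both colours, with 24 and 21 of 32 genes above their mean, and Ifi27 is blue in all 5 KO columns.

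**Figure D2:**
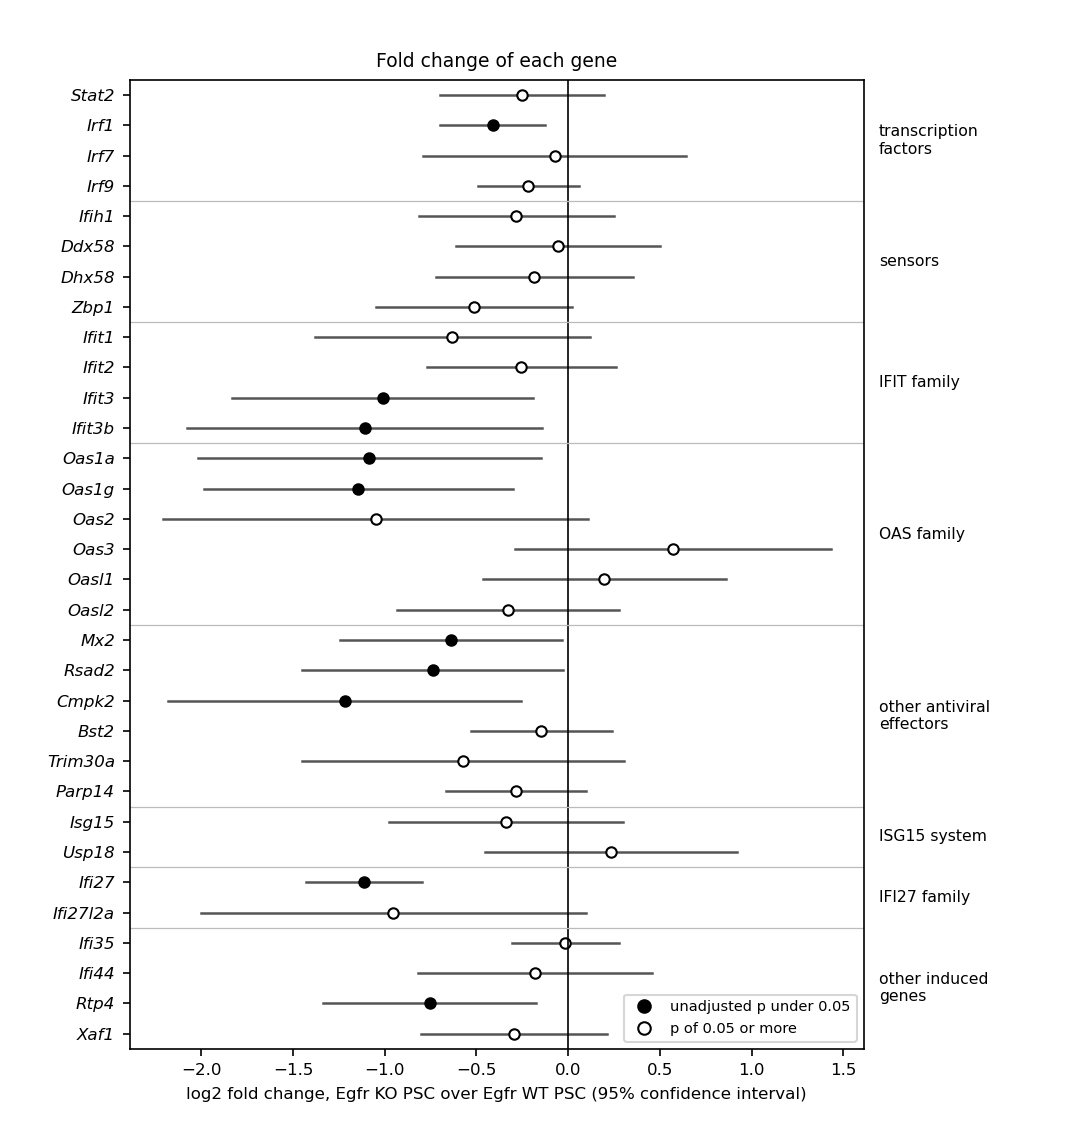
Log2 fold change of each gene in the knockout over the control group (points) and its 95% confidence interval from edgeR (lines), with n = 5 libraries in each group. Of the 32 points, 29 lie left of 0, and the 10 filled points have an unadjusted p under 0.05.

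Ifi27, a small interferon-induced membrane protein gene, stood apart from the rest. It was at 56.6, 51.3, 54.9, 42.7 and 38.2 CPM in control replicates 1 to 5 and at 26.9, 20.3, 20.6, 19.1 and 25.5 CPM in knockout replicates 1 to 5. Every library in the knockout group was below every library in the control group. Within the knockout group Ifi27 was highest in replicates 1 and 5. The log2 fold change was -1.11 (SE 0.146, 95% confidence interval -1.43 to -0.80), with an edgeR adjusted p of 0.105, which was the lowest in the transcriptome and did not pass. It passed with DESeq2 (adjusted p = 4.7e-08) and with limma voom (adjusted p = 0.0353), and over all alternatives its adjusted p lay between 4.7e-08 and 0.854, the last with the macrophage marker score as a covariate, where its log2 fold change was -1.14. Without control replicate 5 or knockout replicate 1, edgeR called it (adjusted p = 0.0405 and 0.0441). Groups that do not overlap, lower in the knockout group, were found for 0.743% of all genes tested, and Ifi27 was the 1 gene of the 32. This count was 6 without knockout replicate 1 (Irf9, Ifit1, Ifit3, Oas1g and Oas2 besides Ifi27), where 1.79% of all genes did not overlap. It was 3 without knockout replicate 5 (Mx2 and Rsad2 besides Ifi27), beside 1.18% of all genes. It was 2 without knockout replicate 2 (Irf1 and Ifi27) and 2 without control replicate 1 (Rtp4 and Ifi27), beside 1.26% of all genes in each case.

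The lower level of Ifi27 was spread over its transcripts. Of 8 Ifi27 transcripts with at least 1 TPM on average in the control group, 3 did not overlap between the groups. Over all 33 genes this held for 4 of 52 such transcripts, and over the transcriptome for 0.526% of 32877. Ifi27-205, which held the largest share of the gene's TPM (36.5%), was at 35.4 ± 6.21 TPM in the control group and 18.0 ± 0.557 TPM in the knockout group. Ifi27-201, another coding transcript, was at 30.9 ± 9.46 and 12.7 ± 3.64 TPM, and the intron-retaining Ifi27-209 at 14.2 ± 3.48 and 4.03 ± 2.12 TPM (SD, n = 5 each). How the quantification divided reads between these overlapping transcripts affects each value. The related gene Ifi27l2a was at 0.709 ± 0.263 and 0.366 ± 0.275 CPM (log2 fold change -0.95, edgeR adjusted p = 0.652), and its groups overlapped.

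**Figure D3:**
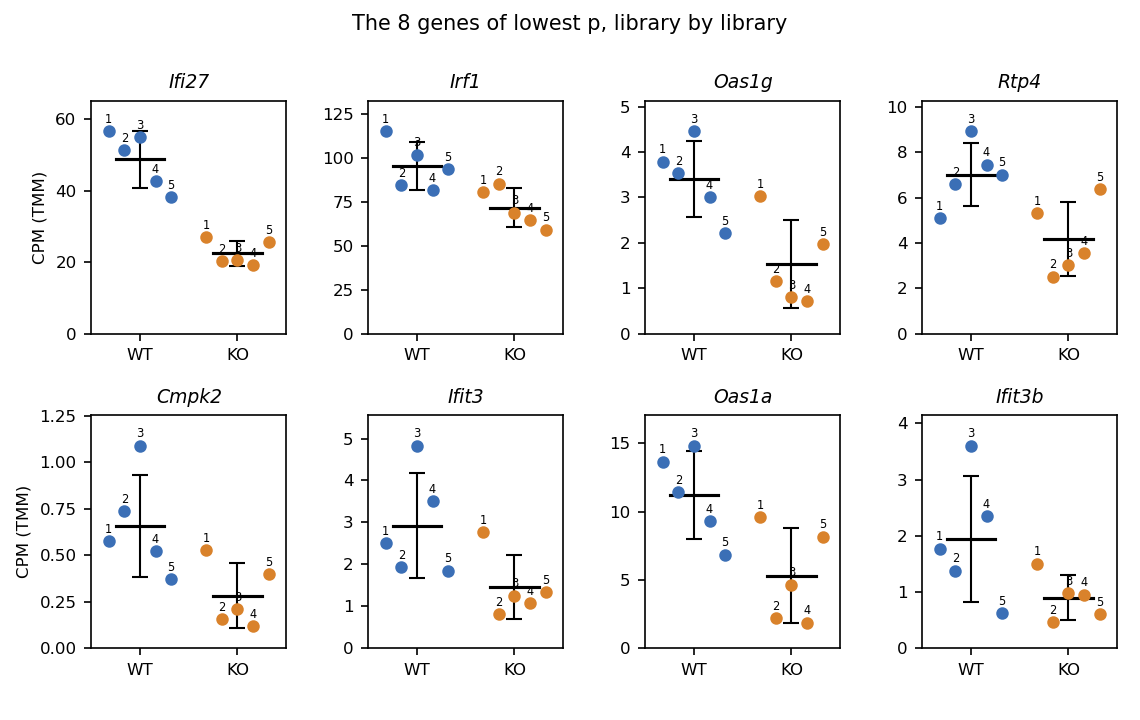
CPM after TMM normalisation in each library (points, numbered by replicate, with the vertical axis from 0) of the 8 genes of lowest p, with the mean and SD of 5 libraries (black). Ifi27 alone shows 2 groups with no overlap. For Ifi27, Oas1g, Rtp4, Cmpk2, Ifit3 and Oas1a the KO replicates 1 and 5 lie above the KO replicates 2, 3 and 4.

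All 4 transcription factors had negative fold changes, but 1 reached an unadjusted p under 0.05. Irf1, a factor induced by interferon gamma and by other inflammatory signals, was at 115, 84.4, 102, 81.3 and 93.5 CPM in the control group and at 80.3, 85.2, 68.8, 64.4 and 59.1 CPM in the knockout group. Only knockout replicate 2 reached into the range of the control libraries (log2 fold change -0.41, SE 0.132, edgeR adjusted p = 0.471). Irf9, the DNA-binding partner of STAT2, was at 46.6 ± 3.37 and 40.1 ± 6.71 CPM (log2 fold change -0.22). Stat2 itself was at 17.8 ± 2.34 and 15.0 ± 4.91 CPM (log2 fold change -0.25). Irf7, which amplifies type I interferon production, had nearly equal means of 17.4 ± 3.81 and 16.5 ± 9.11 CPM, and the knockout libraries were at 23.4, 8.84, 8.77, 12.9 and 28.9 CPM, against 18.8, 22.1, 18.3, 16.0 and 11.8 CPM in the control group. Knockout replicates 1 and 5 were above all control libraries, replicates 2 and 3 below all of them, and replicate 4 among them. The sign of its fold change (-0.07) turned when control replicate 2 or knockout replicate 2, 3 or 4 was left out (0.028, 0.083, 0.092 and 0.0012).

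Among the sensors, Zbp1, which detects Z-form nucleic acid and can start necroptosis, had the largest difference, at 3.5 ± 0.559 CPM in the control group and 2.45 ± 0.783 CPM in the knockout group (log2 fold change -0.51, SE 0.245, edgeR adjusted p = 0.632). Ifih1, which encodes the long double-stranded RNA sensor MDA5, was at 12.9 ± 2.83 and 10.6 ± 3.73 CPM. Dhx58, a regulator of the RNA sensors, was at 2.93 ± 0.423 and 2.58 ± 0.868 CPM. Ddx58, which encodes the RNA sensor RIG-I, was at 12.0 ± 3.66 and 11.5 ± 3.94 CPM. None of the 4 reached an unadjusted p under 0.05, and the fold change of Ddx58 (-0.06) changed sign under several settings.

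The IFIT genes encode cytoplasmic proteins that bind foreign RNA and block its translation. Ifit3 was at 2.50, 1.93, 4.83, 3.5 and 1.85 CPM in the control group and at 2.77, 0.811, 1.25, 1.07 and 1.33 CPM in the knockout group. Replicate 1 alone among the knockout libraries lay within the control range (log2 fold change -1.01, SE 0.376, edgeR adjusted p = 0.510). Its near copy Ifit3b was at 1.77, 1.38, 3.61, 2.34 and 0.623 CPM and at 1.5, 0.463, 0.972, 0.952 and 0.608 CPM (log2 fold change -1.11, edgeR adjusted p = 0.554), with groups that overlapped more widely. The coding sequences of the pair were 99.1% identical over 1209 bases, so the split between them is uncertain. Summed, they had a log2 fold change of -1.05 (SE 0.380, edgeR adjusted p = 0.508).

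Ifit1, the third gene of the same chromosome 19 cluster with an ISRE core shown above, was at 3.83, 4.61, 7.11, 4.67 and 3.28 CPM in the control group and at 6.24, 2.26, 2.11, 2.10 and 2.45 CPM in the knockout group. Knockout replicates 2 to 5 were below every control library, and replicate 1 was near the top (log2 fold change -0.63, SE 0.343, edgeR adjusted p = 0.670). Ifit2, with no ISRE core in its window, was at 1.53 ± 0.299 and 1.28 ± 0.287 CPM (log2 fold change -0.25).

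The OAS family takes its name from enzymes that make 2′-5′ oligoadenylate and so switch on the RNA-degrading enzyme RNase L. Its members had fold changes of both signs, none of them called. Oas1a was at 13.7, 11.4, 14.8, 9.28 and 6.83 CPM in the control group and at 9.57, 2.16, 4.65, 1.86 and 8.16 CPM in the knockout group. Replicates 1 and 5 in the knockout group lay among the control values, and the other 3 lay below them (log2 fold change -1.08, SE 0.429, edgeR adjusted p = 0.547). Oas1g was at 3.79, 3.53, 4.46, 3.01 and 2.22 CPM and at 3.02, 1.16, 0.810, 0.714 and 1.96 CPM, and here replicate 1 alone reached into the control range (log2 fold change -1.14, SE 0.387, edgeR adjusted p = 0.488). Their coding sequences were 96.7% identical over 1101 bases, and the summed pair had a log2 fold change of -1.10 (edgeR adjusted p = 0.509). Of the TPM of Oas1g, 78.5% came from Oas1g-203, a transcript typed as nonsense-mediated decay. The coding transcript Oas1g-201 held 10.0%. Oas2 was at 3.0 ± 1.43 and 1.44 ± 1.2 CPM (log2 fold change -1.05, edgeR adjusted p = 0.652).

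Oas3 and Oasl1 were 2 of the 3 genes with a positive fold change. Oas3 was at 3.28, 1.55, 3.53, 2.98 and 1.94 CPM in the control group and at 5.40, 2.61, 2.06, 2.17 and 7.5 CPM in the knockout group. Its higher mean rested on knockout replicates 1 and 5, as the other 3 lay within the control range (log2 fold change 0.57, SE 0.394, edgeR adjusted p = 0.733). Oasl1, a family member without the enzyme activity, had 58.3 CPM in knockout replicate 5 and 18.7 to 31.4 CPM in the other 4, beside 26.6 ± 6.5 CPM in the control group. Its log2 fold change of 0.20 became -0.17 without that library. With the macrophage marker score as a covariate, both genes had negative values (-0.083 and -0.040). Oasl2 was at 13.5 ± 2.94 and 10.8 ± 4.76 CPM (log2 fold change -0.33).

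The other antiviral effectors comprised 7 genes, of which 6 passed the filter and had negative fold changes. Cmpk2, which encodes a mitochondrial nucleotide kinase and neighbours Rsad2, was at 0.574, 0.736, 1.09, 0.521 and 0.369 CPM in the control group and at 0.526, 0.154, 0.208, 0.119 and 0.397 CPM in the knockout group. Replicates 1 and 5 in the knockout group again lay within the control range (log2 fold change -1.22, SE 0.441, edgeR adjusted p = 0.507). These values rest on 5 to 55 counts per library. Rsad2, which encodes viperin, was at 0.908 ± 0.216 and 0.543 ± 0.234 CPM (log2 fold change -0.74, edgeR adjusted p = 0.604). Mx2, which encodes a GTPase, was at 0.642 ± 0.0656 and 0.413 ± 0.152 CPM (log2 fold change -0.64, edgeR adjusted p = 0.601), from 14 to 36 counts per library. Of its TPM, 78.6% came from Mx2-202, a transcript typed as polymorphic pseudogene, and the coding transcript Mx2-201 is not listed in the deposited files. Its relative Mx1 was at 0.253, 0, 0.0198, 0.0237 and 0.0462 CPM in the control group and at 0.195, 0, 0.602, 0.214 and 0.117 CPM in the knockout group, was not tested, and had 5 annotated transcripts that the deposited files do not list.

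Bst2, which encodes the virus-tethering protein tetherin and was the gene with the highest mean TPM, was at 36.9, 42.8, 32.6, 37.9 and 52.5 CPM in the control group and at 24.4, 36.8, 46.6, 41.0 and 34.4 CPM in the knockout group. The groups overlapped in most of their range, and the library with the lowest value, knockout replicate 1, was among the higher ones for most other genes (log2 fold change -0.15, 95% confidence interval -0.53 to 0.24). Parp14, which encodes an ADP-ribosyltransferase, was at 9.37 ± 1.46 and 7.70 ± 1.59 CPM (log2 fold change -0.28). The TRIM family member Trim30a stood at 1.12 ± 0.532 and 0.753 ± 0.311 CPM (log2 fold change -0.57, edgeR adjusted p = 0.738).

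Isg15 encodes a ubiquitin-like modifier and Usp18 the protease that removes it and also dampens the type I receptor. Isg15 was at 4.88 ± 1.06 CPM in the control group and 3.86 ± 1.61 CPM in the knockout group (log2 fold change -0.34, edgeR adjusted p = 0.793). Usp18 was the third gene with a positive fold change (0.23, edgeR adjusted p = 0.868). It was at 8.38, 10.9, 14.1, 13.0 and 11.3 CPM in the control group, and in the knockout group replicates 1, 2 and 5 were above all of these (18.0, 20.1 and 16.2 CPM) while replicates 3 and 4 were below all of them (5.88 and 7.59 CPM).

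Of the other induced genes, Rtp4, a receptor-transporting protein gene, was at 5.10, 6.59, 8.93, 7.46 and 7.02 CPM in the control group and at 5.32, 2.51, 3.03, 3.55 and 6.38 CPM in the knockout group. Replicates 1 and 5 were again the 2 that overlapped (log2 fold change -0.76, SE 0.267, edgeR adjusted p = 0.496). Ifi35, the gene of a leucine zipper protein, showed the smallest fold change of the 32, at 27.4, 32.8, 35.6, 31.8 and 33 CPM and at 33.2, 30.2, 25, 30.2 and 40.5 CPM. Its values in the knockout group spread to both sides of the control range (log2 fold change -0.01, 95% confidence interval -0.31 to 0.28). Xaf1, linked to apoptosis, was at 5.92 ± 1.10 and 4.83 ± 1.5 CPM (log2 fold change -0.29), and Ifi44 at 1.93 ± 0.339 and 1.71 ± 0.681 CPM (log2 fold change -0.18).

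The 5 libraries in the knockout group were not alike. The mean deviation of the 32 genes from their own averages (log2 CPM) was 0.21, 0.32, 0.53, 0.19 and 0.03 in control replicates 1 to 5. It was 0.17, -0.51, -0.50, -0.60 and 0.14 in knockout replicates 1 to 5. The means of replicates 1 and 5 thus lay within the range of the control libraries, and those of replicates 2, 3 and 4 at least 0.50 log2 units below the average. Below the lowest control library lay 7 of the 32 genes in knockout replicate 1, 24 in replicate 2, 23 in replicate 3, 24 in replicate 4 and 9 in replicate 5. Above the highest control library lay 4, 1, 0, 0 and 8 genes in the same order, and the share of all genes there was not computed. For all genes tested the shares below the lowest control library were 15.7%, 16.9%, 26.1%, 20.6% and 23.0%. Ifi27 was below that limit in all 5, and in replicates 1 and 5 it was below its average while most of the other genes were above theirs (24 and 21 of 32).

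**Figure D4:**
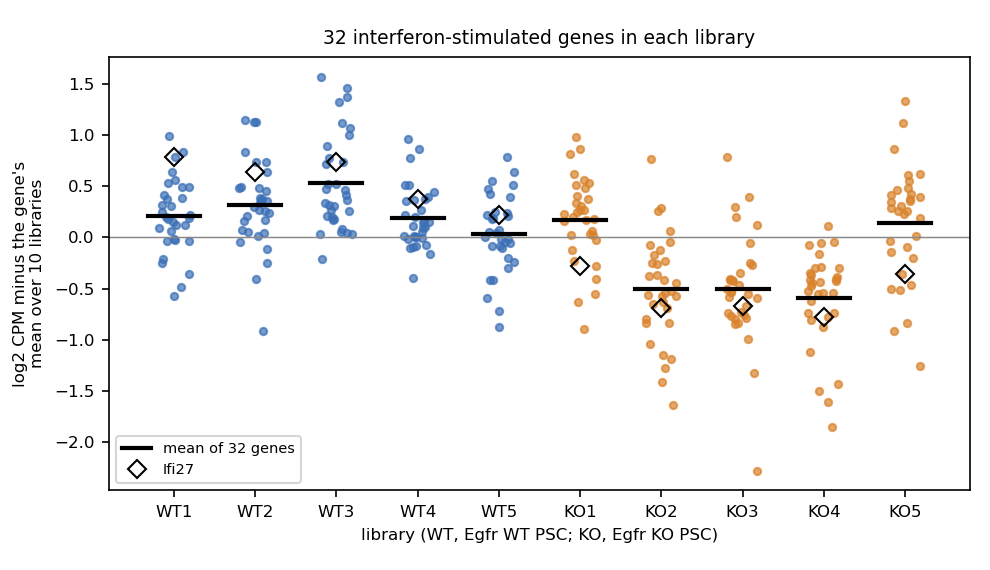
Deviation of each of 32 genes from its own mean over 10 libraries in log2 CPM (points), with the mean over genes (bar) and Ifi27 (open diamond), for each library. The bars of KO1 and KO5 (0.17 and 0.14) lie among those of the WT libraries (0.03 to 0.53), those of KO2 to KO4 lie between -0.60 and -0.50, and the Ifi27 diamond is below 0 in all 5 KO libraries.

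The spread between libraries was wider in the knockout group. The SD of log2 CPM was larger in that group for 30 of the 32 genes, against 61.4% of all genes tested, and the exceptions were Ifi27 and Ifit3b. The median SD was 0.31 in the control group and 0.60 in the knockout group, beside 0.29 and 0.34 for all genes. For Oas1a the SD was 0.45 and 1.07, for Irf7 0.34 and 0.79, and for Stat2 0.19 and 0.46.

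The genes varied together from library to library. Over all 496 pairs the median Pearson correlation of log2 CPM across 10 libraries was 0.49, and after each group's mean was subtracted it was 0.43, beside values near 0 for all pairs of genes tested (-0.0014 and -0.00094). With group means subtracted, 45.8% of the pairs exceeded 0.5, against 13.3% of all pairs. Within the 5 control libraries the median was 0.29, with 36.5% of pairs above 0.5, against 22.7% of all pairs. Within the 5 knockout libraries it was 0.54, with 52.4%, against 22.5%, and the difference between the groups was not tested. These are descriptions: the points share library depth and the same 10 libraries, and the genes are not independent of each other. Oasl2 had the highest median correlation with the other 31 genes after group means were subtracted (0.74), followed by Stat2 (0.70) and Irf7 (0.69). Oas3 then had a median of 0.64 and was closest to Ifih1, and Ifi27 had a median of 0.53. The subtraction takes out the opposite mean difference of Oas3. Without it, Oas3 had a median of 0.24 and was closest to Oasl1 (r = 0.75). Ifi27 had a median of 0.64 without it, and the highest median was that of Cmpk2 (0.73).

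The pattern was weakest or reversed in 5 genes. Irf1 had a median correlation of 0.05 with the others after group means were subtracted, Ifi27l2a of -0.01, Ifi44 of -0.07, Ifit2 of -0.34 and Bst2 of -0.65. Trim30a (0.18), Ifit3b (0.23) and Ddx58 (0.25) came next, and no cut-off was set. Without the subtraction the medians of the 5 were 0.37, 0.28, 0.08, 0.05 and -0.36 in the same order. With group means subtracted, Bst2 correlated above 0 with 4 of its 31 partners and was closest to Ifi44. An ISRE core was found in the windows of Stat2 and Oas1g, which are among the most coherent genes, and of Bst2, and in none of those of Oasl2 and Irf7.

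**Figure D5:**
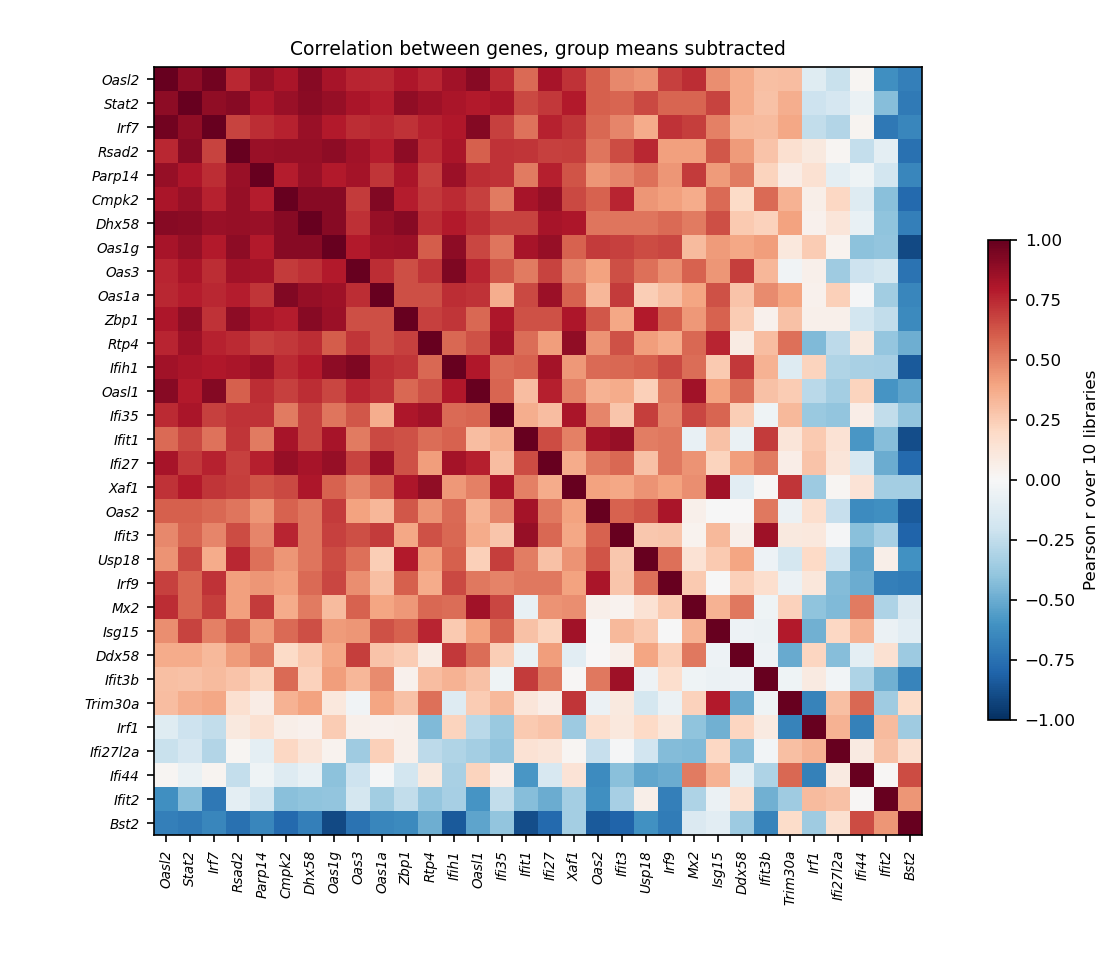
Pearson correlation of log2 CPM over 10 libraries, with group means subtracted, between each pair of 32 genes, ordered by their median correlation with the others (0.74 for Oasl2 at the top to -0.65 for Bst2 at the bottom). Red is positive and blue negative. Most of the square is red, and the last rows, from Irf1 to Bst2, are pale or blue.

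The rest of the pathway was read from lists of 80 further genes. Of 67 above the filter, 50 were lower and 17 higher in the knockout group, with a median log2 fold change of -0.14. None was called by edgeR. At an unadjusted p under 0.05 in edgeR, 8 were lower and 1 was higher. Of all genes tested, 49.9% were lower without a threshold, and at that p 4.6% were lower and 3.55% higher. Interferon genes themselves were hardly detected: of 11 ligand genes, 4 had no count in any library, and only Ifne, an epithelial type I interferon gene, passed the filter, at 0.777 ± 0.236 and 0.887 ± 0.450 CPM (log2 fold change 0.19).

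Of the 6 receptor genes, 5 had negative fold changes. Ifngr2, a chain of the interferon gamma receptor, was at 27.1, 23.2, 23.6, 21.3 and 22.8 CPM in the control group and at 19.2, 20.7, 15.7, 15.6 and 18.1 CPM in the knockout group. These 2 groups did not overlap (log2 fold change -0.40, SE 0.120, edgeR adjusted p = 0.440), which in this direction held for 0.743% of all genes tested. Ifnar2, a chain of the type I receptor, was at 8.21 ± 1.08 and 6.10 ± 0.748 CPM (log2 fold change -0.43, edgeR adjusted p = 0.501), and its partner Ifnar1 at 92.5 ± 12.5 and 85.7 ± 16.3 CPM (-0.11). Ifngr1 was at 368 ± 42.3 and 367 ± 87.8 CPM (-0.0047). The type III chains were Ifnlr1, at 8.03 ± 1.37 and 8.07 ± 1.93 CPM (0.0066), and Il10rb, at 29.5 ± 6.16 and 23.2 ± 4.67 CPM (-0.35).

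Of the 5 kinase and transducer genes, 4 had negative fold changes and none was called by edgeR. Jak1 was at 100.4 ± 11.5 and 82.6 ± 15.8 CPM (-0.28) and Jak2 at 34.8 ± 11.5 and 35.9 ± 7.73 CPM (0.05). Tyk2 was at 65.9 ± 4.03 and 64.5 ± 12.0 CPM (-0.03), and the transducer gene Stat3 at 292 ± 63.1 and 256 ± 52.4 CPM (-0.19).

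In the sensing pathway 8 of 12 genes were lower and 4 higher, and the genes of lowest p were Myd88, an adaptor of Toll-like receptors (76.3 ± 11.4 and 61.0 ± 8.53 CPM, log2 fold change -0.32), and Irf5 (1.30 ± 0.466 and 0.851 ± 0.175 CPM, -0.61). Of the 8 genes on the list of negative regulators 5 were lower, led by Socs3, an inhibitor of JAK signalling (160.0 ± 67.0 and 76.8 ± 29.8 CPM, log2 fold change -1.06, edgeR adjusted p = 0.457), and 3 were higher, among them the phosphatase gene Ptpn6 (17.8 ± 1.67 and 20.5 ± 2.08 CPM, 0.21). The 5 include Isg20 (-0.15), which is an interferon-stimulated gene and not a negative regulator. Of 23 further interferon-induced genes, 18 were lower and 5 higher. The lowest p among them belonged to Dtx3l, a ubiquitin ligase gene (35.1 ± 3.63 and 26.7 ± 5.48 CPM, -0.39), and Slfn2 (34.3 ± 7.93 and 23.0 ± 7.11 CPM, -0.57). Of 13 genes typical of interferon gamma, 11 were lower and 2 higher, and those of lowest p were the GTPase gene Igtp (8.73 ± 0.991 and 6.85 ± 1.38 CPM, -0.35) and the tryptophan-degrading enzyme gene Ido1, which was on the higher side (1.34 ± 0.630 and 2.11 ± 0.743 CPM, 0.66). All of these had an edgeR adjusted p of 0.457 or more.

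Markers of other cell types were set beside these values, since cells of another kind in a sort carry interferon-stimulated transcripts too. The 15 macrophage and monocyte markers summed to 274 to 469 CPM in the control group and 225 to 338 CPM in the knockout group (two-sided exact permutation p = 0.0635, 0.286 adjusted over 9 marker lists), and 9 of the 13 tested were lower, with a median log2 fold change of -0.81. Most of that sum was Cd14, and the defining genes Adgre1 and C1qc were at 0.512 ± 0.262 and 0.219 ± 0.131 CPM and at 0.977 ± 0.900 and 0.214 ± 0.204 CPM. No marker on this list was at 0 in every library. By library the sums in the knockout group were 235, 227, 338, 225 and 305 CPM. Cd68, another marker on this list, was at 8.08, 14.0, 18.0, 10.5 and 8.57 CPM in the control group and at 15.3, 9.44, 8.98, 9.50 and 22.1 CPM in the knockout group. Cd68 was thus higher in knockout replicates 1 and 5 than in the other 3, as was the mean of the 32 genes. The sum of the 8 epithelial markers was also higher in those replicates. It was 19795, 16553, 14359, 18006 and 25568 CPM in knockout replicates 1 to 5. The sum of all 15 macrophage and monocyte markers did not follow that order. It was highest in replicate 3 (338 CPM), and replicate 1 (235 CPM) was close to replicates 2 and 4 (227 and 225 CPM). Cd68 is 1 marker picked after its values were seen, and its part in the values of the 32 genes was not tested. The macrophage score was not this sum but the mean log2 CPM of the 13 markers tested, each with equal weight. With the macrophage score as a covariate, 31 of 32 genes were lower, the median log2 fold change was -0.41, and 4 instead of 10 had an unadjusted p under 0.05.

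The 14 fibroblast and stellate cell markers summed to 445 to 1124 and 450 to 1365 CPM (exact permutation p = 0.690), with 11 of 14 lower and a median log2 fold change of -0.52. Col1a1, a collagen gene among them, was at 199 ± 55.2 and 96.6 ± 27.2 CPM (log2 fold change -1.04, edgeR adjusted p = 0.321, DESeq2 adjusted p = 0.00592). With their score, formed in the same way, as a covariate 27 of 32 genes were lower, with a median of -0.38 and 6 at an unadjusted p under 0.05. The 10 endothelial markers summed to 31.2 to 49.9 and 14.1 to 67.6 CPM (exact permutation p = 0.492). Of these, 9 of the 9 tested were lower, with a median log2 fold change of -0.28. The 7 plasmacytoid and conventional dendritic cell markers summed to 64.3 to 84.7 and 54.8 to 76.6 CPM (exact permutation p = 0.143). Here 3 of the 3 tested were lower. The neutrophil and acinar lists had an exact permutation p of 0.841 and 0.643. The 5 erythroid markers did separate the groups, at 4.45 to 31.5 and 0.604 to 2.97 CPM (exact permutation p = 0.00794, the smallest that 5 against 5 can give, 0.0714 adjusted). The part of other cells in the differences of the interferon-stimulated genes was not tested beyond these fits.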

How the data were processed

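Epithelial cells sorted from tumours were sequenced in 10 libraries, 5 control and 5 knockout, grouped by the PSC line in the labels. Per the labels' protocols, RNA was made into libraries with a low-input kit, with PCR cycles set by input. The authors deposited expected counts (estimated reads), effective lengths and TPM per transcript. Per the submitters' processing notes these came from Salmon 1.9.0 on GRCm39. Which annotation they used was not given in the sources. Estimated counts and deposited TPM values were summed per gene through GENCODE M21 names: 137063 of 147828 transcripts (92.7%) matched, with 98.1% to 98.7% of the counts. Effective lengths entered 1 alternative. Summed counts were rounded and fitted with edgeR 4.0.16 (R 4.3.3, TMM, minimum count 10, quasi-likelihood F test, Benjamini-Hochberg over 17495 genes, threshold 0.05), a script tested on simulated data. CPM are TMM-normalised, and log2 CPM used a prior count of 2. DESeq2 1.42.0 and limma 3.58.1 were alternatives. Marker sums were compared over all 252 assignments. Without molecular identifiers, intervals do not separate duplicates. Replicate numbers only name libraries and pair nothing.

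The genes and lists were chosen with earlier results of these data known. Every library's value was printed for the 8 genes of lowest p, the 4 of highest mean TPM and any gene whose groups did not overlap. From the pathway lists, the receptors and transducers and the 2 genes of lowest p in each other list were named, except for 1 result that is not reported here. Ifit1, Irf7, Oas3, Oasl1, Usp18, Mx1, Ifngr2 and Cd68 were given by library, and Col1a1 was named, after their values were seen.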

Additional observations from a re-analysis of the deposited data

Results flagged for a closer look

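In groups of 5 libraries, 1 library stood far from the other 4 in 5 of 68 groups examined, and chance alone marks about 1 in 20 groups. knockout replicate 1 was high for 2 IFIT genes. Ifit1 was at 6.24 CPM there and at 2.10 to 2.45 CPM in the other libraries of that group. Ifit3 was at 2.77 CPM there and at 0.811 to 1.33 CPM in the others. knockout replicate 5 had 0.678 CPM of Mx2, beside 0.324 to 0.405 CPM in the others. control replicate 3 had 1.29 CPM of Rsad2, beside 0.780 to 0.876 CPM in the others. control replicate 1 had 0.253 CPM of Mx1, beside 0 to 0.0462 CPM in the others, all below the expression filter.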

How the results depend on the processing

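Alternatives numbered 23, of which 10 left out 1 library each and 1 was chosen after seeing the data (control replicate 5 and knockout replicate 3, highest in endothelial markers, left out together). Of 734 fold changes of single genes under alternatives, 702 kept their sign and side of the threshold, 24 changed sign and 8, all of Ifi27, passed the threshold. For 24 of the 32 genes no sign changed.

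Over the transcriptome edgeR called 0 genes, against 131 with DESeq2, 3 with limma voom, 1 with library totals in place of TMM, 1 with no filter, 1 with limma on log2(TPM + 1) and 3 on log2(TPM + 0.1). In each of these 6 settings 1 of the 32 genes was called, Ifi27. Leaving out 1 library gave 0 to 4 calls, and 0 to 1 among the 32. The number at an unadjusted p under 0.05 was 4 with the macrophage score, 6 with the fibroblast score, and 4 to 13 with 1 library left out (4 without control replicate 3, 6 without knockout replicate 2). Genes whose groups did not overlap numbered 2 (Rsad2 and Ifi27) with library totals and with deposited TPM, where the share of all genes was not computed. They numbered 1 to 6 with 1 library left out, and the shares of all genes are given above wherever that number exceeded 1. Tests, filters, covariates and pseudocounts do not alter that count's levels and gave no value for it. With 1 library left out, 26 to 30 genes were lower and the median lay between -0.50 and -0.25. Without the pair of libraries 28 were lower, with a median of -0.28. The median correlation was 0.45 by Spearman, 0.43 with group means subtracted and 0.44 to 0.56 with 1 library left out.

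With the effective length offset Irf7 was at 0.032, Ddx58 at 0.061 and Ifi44 at 0.035. Ddx58 was at 0.0052 on log2(TPM + 1) and 0.0033 on log2(TPM + 0.1). Oasl1 was at -0.036 with voom and -0.040 with the macrophage score, where Oas3 was at -0.083. With the fibroblast score Bst2 was at 0.030 and Isg15 at 0.013. Ifi35 was at 0.078 without the pair of libraries. With 1 library left out Irf7 lay between -0.37 and 0.092, Ddx58 between -0.25 and 0.13, Oasl1 between -0.17 and 0.33 and Ifi35 between -0.11 and 0.070. The cause was not tested. Mx2 summed with Mx1 had -0.16 in place of -0.64. No paired analysis was possible because the replicate numbers were given in accession order and pair no libraries.

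Depth limits the genes with few counts: Cmpk2 and Ifi27l2a had 5 to 55 counts per library, and Mx1 0 to 26.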
